A study of Mus musculus with 9 samples.

Results

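The cells described here are mouse macrophages grown from bone marrow and exposed to interleukin 4 (IL-4) with vehicle only. They were measured on 3 of the 9 expression arrays of a study of the siderophore-binding protein lipocalin 2 (LCN2), and the other arrays, from cells that also received LCN2, were not used here. Genes were chosen by one rule: each gene with 1 symbol was represented by its probe set, or by the probe set with the highest mean where it had several, and the 19505 genes were ranked by their mean level over the 3 vehicle arrays. Per the labels, marrow of wild-type C57BL/6 mice was cultured for 7 days with macrophage colony-stimulating factor (M-CSF) and 10% serum, and IL-4 at 20 ng/ml was then present for 24 h. The growth protocol gives M-CSF at 10 ng/ml and the series text at 20 ng/ml, and the vehicle is not named. All groups of the study received IL-4, so no value below measures a response to IL-4. Whether the 3 arrays stem from different mice or cultures is not stated in the labels, so the spread between them, given as the SD with n = 3, may be technical. Before biotin labelling, the column-purified RNA went through an amplification made for small amounts.

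IL-4 binds a receptor of which the IL-4 receptor alpha chain is a part, and the signal passes through JAK kinases to the transcription factor STAT6. In macrophages this leads to the state called alternative activation or M2, whose classic mouse markers are Arg1, Retnla, Chil3 and Mrc1. M-CSF, acting through the receptor Csf1r, makes marrow progenitors into macrophages and keeps them alive, and such cells are rich in lysosomes, scavenger receptors and complement components.

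A level is the deposited log2 value, on which a step of 1 is a 2-fold difference in signal. Genes were put into 3 classes. Near background means a mean level of at most 4.59, the 95th percentile of 1447 odorant, vomeronasal and taste receptor genes. They serve as a reference of families taken to be mostly silent in macrophages. Single members may still be used, and Olfr111 (mean 8.35) and Olfr110 (mean 7.32) read well above the border. Bright means the top 10% of all genes, at 9.40 or above, and middling means everything between. By these rules 1950 genes (10%) were bright, 10910 (55.9%) were middling and 6645 (34.1%) were near background. The level of all genes had a median of 5.79 and that of the chemosensory reference a median of 3.45. The 10% is fixed by the definition of bright, so shares within gene groups are set beside it and beside 34.1% near background as a description, with no test. The brightness of a probe set also depends on how well its probes bind, so a class says where a gene's own probe set lay in the signal of the arrays and does not order genes by RNA copies.

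The lower border depends on the reference. With 168 genes of epithelial structure, defensin and prolactin families in place of the chemosensory genes, the same percentile lay at 6.92, because 54 of those 168 genes exceeded 4.59. The 5562 middling genes at or below 6.92 are therefore not separated from background under that reference, and they are called low middling below. The 5348 middling genes above 6.92 lay above both borders. None of the 1447 or of the 168 reference genes was bright.

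**Figure D1:**
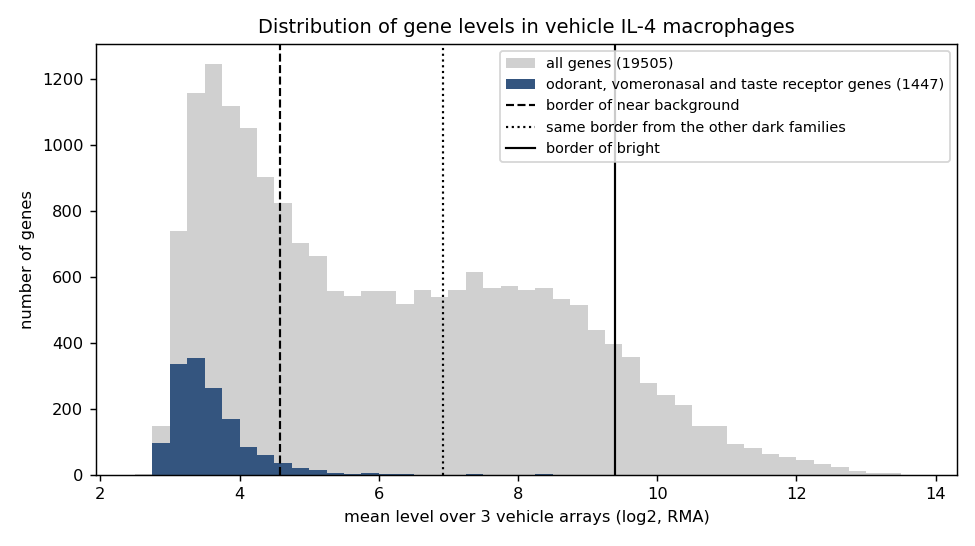
Histogram of the mean level (log2, RMA) over the 3 vehicle arrays for all 19505 genes in grey and for the 1447 odorant, vomeronasal and taste receptor genes in blue, as numbers of genes. The dashed line marks the border of near background (4.59), the dotted line the same border from the other dark families (6.92) and the solid line the border of bright (9.40), and the blue genes gather around their median of 3.45.

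The array vehicle 1 stood apart from vehicle 2 and vehicle 3. Across the 19505 genes, which are not independent replicates, Pearson's r was 0.995 between vehicle 2 and 3, 0.986 between 1 and 2, and 0.983 between 1 and 3. Of the 12860 genes not near background, 606 spanned more than 1 on the log2 scale over the arrays, and vehicle 1 was the array farthest from the median of the 3 in 568 of them. Vehicle 1 differed by more than 1 from the mean of the other 2 arrays in 430 genes (167 higher and 263 lower), while vehicle 2 and 3 differed by that much in 4. The median of vehicle 1 minus that mean was -0.036 over the 12860 genes. The share of all genes higher or lower on vehicle 1 was not computed, so list counts of that kind below lack it. Most genes kept their class, and 17753 (91%) had the same class on every array, with borders set per array. That 0 genes were bright on one array and near background on another says little about agreement. The widest range of a gene not near background was 4.30 (Ctnnd2), while the borders on vehicle 1 stood farther apart, at 4.68 and 9.34. Without vehicle 1, 1870 of the 1950 bright genes stayed bright and 447 genes changed class. The array medians were 5.69, 5.65 and 5.63, and values ran from 2.51 to 13.46. In bulk RNA, fewer cells of a type and less RNA per cell cannot be told apart.

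The 4 defining markers of IL-4 treated macrophages were bright on every array. Retnla, which encodes the secreted protein RELMα, read 12.70, 12 and 12.06 on vehicle 1, 2 and 3 (mean 12.25 ± 0.39). Mrc1, the mannose receptor CD206, read 11.70, 11.86 and 11.88 (mean 11.81 ± 0.10). Arg1, the enzyme that splits arginine into ornithine and urea, read 11.23, 11.85 and 11.82 (mean 11.64 ± 0.35). Chil3, the chitinase-like secreted protein Ym1, read 12.53, 11.03 and 10.84 (mean 11.47 ± 0.92). Vehicle 1 was high for Retnla and Chil3 and low for Arg1, and vehicle 2 and 3 lay close together for all 4. Of the general macrophage markers fixed beside them, Csf1r (12.08 ± 0.05), Adgre1 (11.81 ± 0.10), the gene of F4/80, and Itgam (11.67 ± 0.09), the integrin CD11b, were bright. Fcgr1 (8.14 ± 0.59), a high-affinity IgG receptor, and Mertk (7.87 ± 0.44), a receptor for apoptotic cells, were middling above both borders. Cd68 was not analysed here.

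The stretches just before the start sites of 3 of these markers are shown because they differ from those of most bright genes in their CG dinucleotides. RefSeq promoter windows (GRCm38.p6, 250 bases before to 50 after a start) matched 15691 of the 19505 genes, and Arg1 had none among them. The 250 bases before the start are given 5′ to 3′ on the gene's strand, with each CG in capitals. Tmsb4x, which encodes an actin-binding peptide, is added as a contrast: of the genes with a single promoter window and a CpG ratio above 0.75 it had the highest level (12.93 ± 0.04).
Retnla, chr16:48842359-48842608, plus strand: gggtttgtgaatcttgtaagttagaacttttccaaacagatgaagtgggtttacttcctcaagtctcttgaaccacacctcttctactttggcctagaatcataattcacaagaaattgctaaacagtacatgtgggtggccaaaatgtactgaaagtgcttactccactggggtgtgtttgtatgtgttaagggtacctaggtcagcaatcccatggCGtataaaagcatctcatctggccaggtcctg
Chil3, chr3:106167565-106167814, minus strand: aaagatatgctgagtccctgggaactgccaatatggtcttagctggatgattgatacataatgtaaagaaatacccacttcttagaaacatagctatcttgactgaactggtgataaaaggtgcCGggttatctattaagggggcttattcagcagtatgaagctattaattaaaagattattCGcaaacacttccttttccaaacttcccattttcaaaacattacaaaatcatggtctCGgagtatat
Mrc1, chr2:14229164-14229413, plus strand: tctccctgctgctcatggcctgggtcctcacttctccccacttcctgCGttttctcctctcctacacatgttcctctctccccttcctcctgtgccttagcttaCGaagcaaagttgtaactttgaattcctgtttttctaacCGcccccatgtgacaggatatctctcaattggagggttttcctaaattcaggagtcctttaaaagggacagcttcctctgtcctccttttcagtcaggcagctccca
Tmsb4x, chrX:167209219-167209468, minus strand: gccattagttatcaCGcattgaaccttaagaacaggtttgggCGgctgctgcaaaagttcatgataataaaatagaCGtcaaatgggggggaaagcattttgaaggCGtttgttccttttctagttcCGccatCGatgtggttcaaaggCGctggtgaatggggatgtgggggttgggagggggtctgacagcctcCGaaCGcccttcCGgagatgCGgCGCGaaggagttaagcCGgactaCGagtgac
Retnla held 1 CG in this stretch, Chil3 and Mrc1 held 3 each, and Tmsb4x held 15. The CpG ratio sets the CGs seen against those that the C and G content would give. Over the 300-base windows it was 0.134 for Retnla, 0.268 for Chil3, 0.167 for Mrc1 and 0.988 for Tmsb4x. In Retnla a TATAAA begins 30 bases before the start.

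The promoters of the bright class as a whole were of the other kind. The median CpG ratio was 0.772 over 2088 promoters of bright genes, 0.708 over 11022 of middling genes and 0.255 over 6033 of genes near background (0.319 without the chemosensory genes), against 0.595 over all 19143. A ratio under 0.35 was found in 15.5% of bright, 21.7% of middling and 62.2% of near-background promoters. The letters TATAAA, on either strand, stood in 9.20% of bright and 8.14% of middling promoters, and in 21.1% of those near background. Promoters of 19 IL-4 effector genes had a median ratio of 0.246 (21 promoters), although 14 of the 28 measured genes of that list were bright. C-type lectins (0.210, 24 promoters) and inhibitory and paired receptors (0.141, 24 promoters) had low ratios too. Genes of the tricarboxylic acid cycle (0.855, 29 promoters) and of the cell cycle (0.836, 32 promoters) had high ones, and lysosomal hydrolases lay between (0.514, 35 promoters). The lists share genes and some genes have several promoters, so these medians are descriptions.

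**Figure D2:**
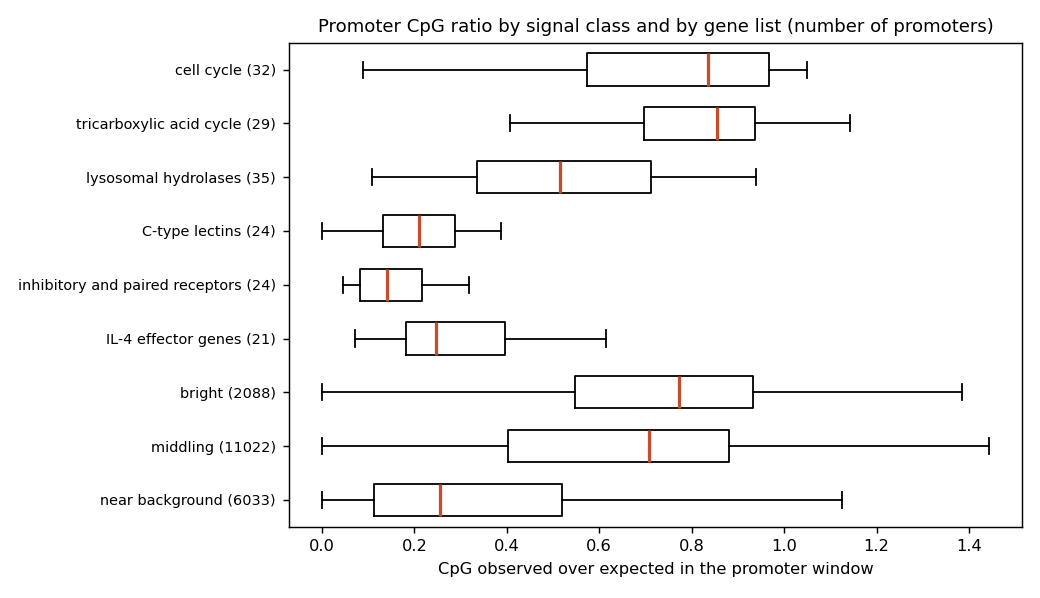
Box plots of the CpG ratio (CG dinucleotides observed over expected in the 300-base promoter window) for the 3 signal classes and for 6 gene lists, with the number of promoters in brackets. Red lines are medians, boxes span the middle quartiles and whiskers reach the farthest promoter within 1.5 box lengths, and the IL-4 effector genes (median 0.246) sit close to the near-background class (0.255) and not to the bright class (0.772).

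STAT6 is known to prefer a palindrome with 4 free bases, TTCNNNNGAA, which reads the same on both strands. It stood in 4 of the 21 promoters of IL-4 effector genes (19.0%), against 6.29% of all 19143 promoters and 5.17% of bright ones. Some other sets had it more often, such as interleukin genes with 12 of 37 promoters (32.4%). It stood in 7 of 27 promoters of inflammatory cytokines and enzymes (25.9%) and 4 of 19 of type I interferon response genes (21.1%). Sets with many bright genes had similar shares, with 2 of 10 for the M-CSF axis (20%) and 4 of 22 for macrophage surface markers (18.2%). Of the promoters of bright IL-4 effector genes, 3 of 9 had it (33.3%). The related form with 3 free bases, TTCNNNGAA, stood in 3 of the 21 (14.3%), against 7.75% of all promoters. The 4 matches are shown in windows of 40 bases, with the palindrome in capitals, because they belong to 3 bright genes and 1 low middling gene of one list.
Retnla, chr16:48842449-48842488, plus strand: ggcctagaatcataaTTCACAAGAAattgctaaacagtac
Tfec, chr6:16898617-16898656, minus strand: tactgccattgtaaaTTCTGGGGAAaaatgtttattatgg
Pdcd1lg2, chr19:29410822-29410861, plus strand: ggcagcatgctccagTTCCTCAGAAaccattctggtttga
Ccl17, chr8:94810284-94810323, plus strand: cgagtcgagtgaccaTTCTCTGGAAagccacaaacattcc
The first base of the palindrome lay 145 bases before the start of Retnla, 200 before that of Tfec, 82 before that of Pdcd1lg2 and 154 before that of Ccl17. Tfec, a transcription factor of macrophages, was bright (9.85 ± 0.35), as was Pdcd1lg2, the checkpoint ligand PD-L2 (9.59 ± 0.24). Ccl17, a chemokine that attracts T cells, was low middling (6.12 ± 0.31). A match is a stretch of letters and not a measured binding site.

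Of the 28 measured IL-4 effector genes, 14 were bright, 13 were middling (5 of them low middling) and 1 was near background. Igf1, the growth factor IGF-1, read 13.38, 13.28 and 13.31 and ranked 3 of all 19505 genes. The galactose-binding lectins Mgl2 (11.55 on each array) and Clec10a (10.73, 10.76 and 10.77) hardly varied between the arrays. Chil4, the chitinase-like protein Ym2, was 11.88 on vehicle 1 but 9.76 and 9.68 on the others, and Chil3 and Chil4 are close copies whose probes could share signal. Tgm2, a transglutaminase, was also high on vehicle 1 (10.76 against 9.53 and 9.41). Flt1, a receptor for vascular endothelial growth factor, went the other way (9.49 against 10.85 and 10.94), as did the cadherin Cdh1 (8.83 against 10.49 and 10.03). At the low end stood Alox15, a lipoxygenase (5.34 ± 0.18), Cd163, the haemoglobin scavenger receptor (5.34 ± 0.02), and Cd209a, a lectin (5.56 ± 0.17), all low middling. The lectin gene Cd209d was near background at 3.24 ± 0.19.

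Paralogs of Retnla, Arg1 and Mrc1 fell into lower classes. Retnlg, of the same family as Retnla, was low middling at 4.92 and Retnlb was near background at 3.39. Arg2, the mitochondrial arginase, was near background on every array at 4.26, 3.73 and 3.47, while Arg1 was bright. Mrc2, the collagen-binding relative of the mannose receptor, was low middling at 4.73. Lyz2, the lysozyme of macrophages, was bright (12.44 ± 0.32) and its close copy Lyz1 was middling (7.71).

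The receptor and signalling genes of IL-4 were mostly middling. Of 24 measured, 9 were bright (8 without vehicle 1), 13 middling (4 low middling) and 2 near background. Il4ra, which encodes the receptor's alpha chain, read 9.91 on vehicle 1 and 8.78 and 8.57 on the others, so it was bright on one array only. Stat6 read 10.10, 10.18 and 10.23 (mean 10.17 ± 0.07) and was bright on all 3. Il13ra1, the chain that pairs with the alpha chain in the receptor shared with IL-13, was low middling (5.09 ± 0.19), and the decoy receptor Il13ra2 was near background (3.32 ± 0.15). Egr2, a zinc finger factor that IL-4 is known to induce, led the list at 11.89, 11.12 and 10.94, followed by Myc (10.76 ± 0.33), Rbpj (10.36 ± 0.09), the effector of Notch signalling, and the phosphatase gene Ptpn1 (10.17). Pparg, the lipid-sensing nuclear receptor, was bright as well (9.69, 10.17 and 10.35). Irf4, a factor tied to alternative activation, was middling (7.89 ± 0.30). The insulin receptor substrate gene Irs1 was near background (3.50 ± 0.18), and the feedback inhibitor Socs3 was low middling (5.98 ± 0.26).

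**Figure D3:**
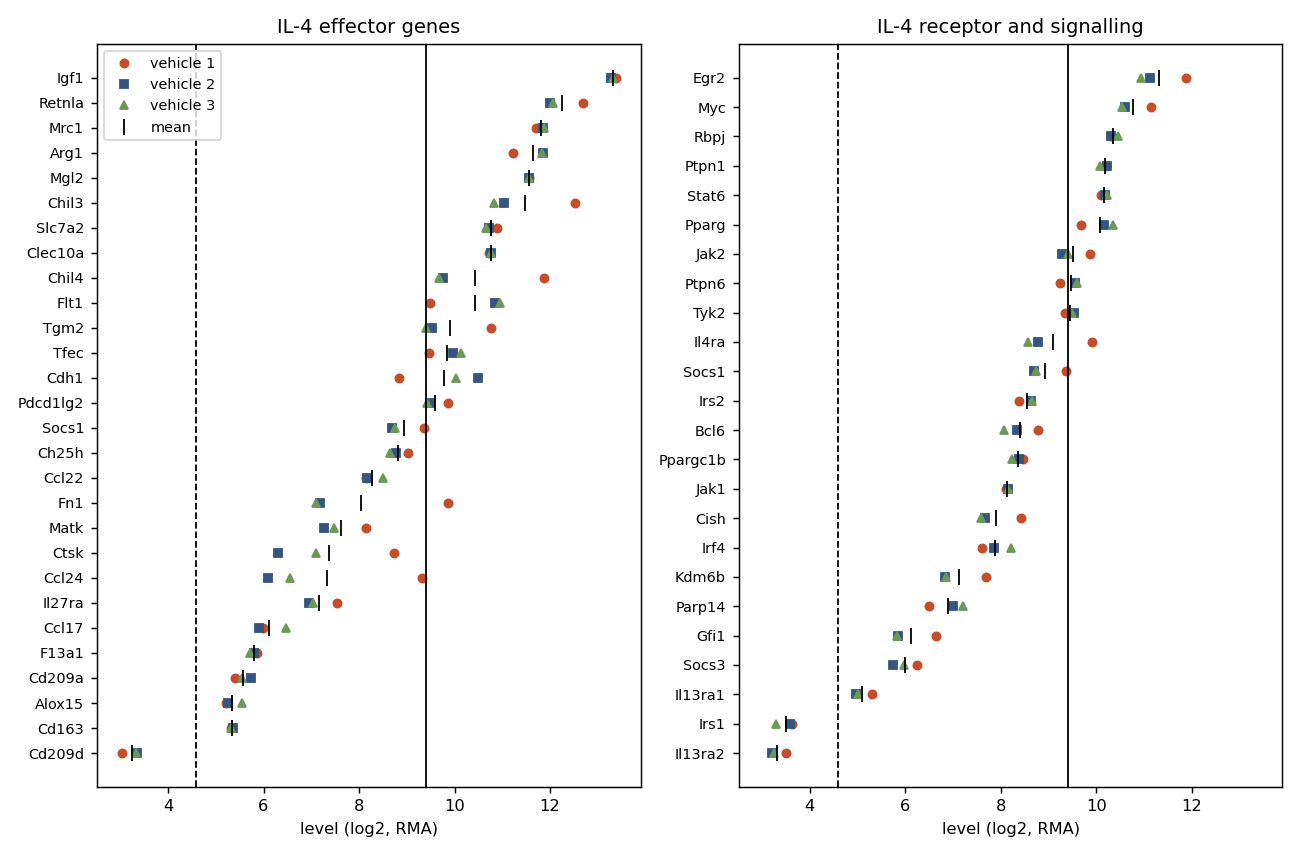
Level (log2, RMA) of each measured IL-4 effector gene (left) and IL-4 receptor and signalling gene (right) on vehicle 1 (red circles), vehicle 2 (blue squares) and vehicle 3 (green triangles), with a short black bar at the mean. The dashed line is the border of near background (4.59) and the solid line that of bright (9.40), and red points stand away from the other arrays for Chil3, Chil4, Flt1, Fn1, Ccl24 and Il4ra.

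The genes with the strongest signal came from a few kinds of cell function. B2m, the light chain of MHC class I, ranked first (13.38, 13.38 and 13.46), and the ferritin heavy chain Fth1 ranked 2 (13.44, 13.41 and 13.35), with the light chain Ftl1 ranking 11 (12.94 ± 0.05). Mmp12, the macrophage elastase, ranked 4 (13.25 ± 0.11), and the cathepsin gene Ctsb ranked 6 (13.22 ± 0.10). Actin (Actb, 13.24 ± 0.02), vimentin (Vim, 12.86 ± 0.04) and Tmsb4x stood for the cytoskeleton. Of macrophage surface proteins, Sirpa, the receptor for CD47, ranked 9 (13.02 ± 0.09) and Gpnmb ranked 10 (12.94 ± 0.30). The lipoprotein lipase Lpl ranked 21 and read 12.72, 12.74 and 12.75. Others among the first 30 serve translation (Eef1a1, Rps23 and Eif5a), protein folding in the endoplasmic reticulum (Calr), redox defence (Prdx1) and lysosomes (Psap and Laptm5). The range over the arrays was small for most of these genes, and Gpnmb, at 13.28 on vehicle 1 and 12.74 and 12.80 on the others, was the least even of those given here.

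Transcription factors spanned the whole range of levels. Spi1, which encodes PU.1, the factor that sets myeloid fate, was the only factor of the lists among the first 30 genes, ranking 15 at 12.96, 12.94 and 12.80. Of 25 measured factors of the macrophage lineage, 9 were bright (8 without vehicle 1), 16 middling and 0 near background, and their median was 8.78. Id2 (11.86 ± 0.11), an inhibitor of helix-loop-helix factors, Bhlhe40 (11.14 ± 0.26) and Elf1 (10.41 ± 0.23) followed Spi1. The lowest were Klf2 (6.55 ± 0.34), which was low middling, Batf3 (7.00 ± 0.29), Id3 (7.53 ± 0.31) and Irf8 (7.64 ± 0.06). Of 22 immediate early genes, 8 were bright, 14 middling and 0 near background, and 19 were higher on vehicle 1 than on the mean of the others. The phosphatase Dusp1 read 11.66, 10.92 and 10.60, and Atf3, a stress factor, had a mean of 10.95. Without vehicle 1 the bright count of that list was 6.

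Factors of the STAT, IRF and NF-kB families were mostly middling (4 of 23 bright, 18 middling, 4 of the latter low middling). Rela (10.50 ± 0.15) and Rel (9.98 ± 0.10), both NF-kB subunits, and Irf2 (9.76) were bright beside Stat6, while Stat4, a factor of T and NK cells, was near background (3.24 ± 0.19). Of 32 nuclear receptors, Pparg alone was bright, 25 were middling (13 low middling) and 6 near background. Rarg (8.45 ± 0.11), Nr1h3 (9.11, 8.14 and 7.60), which encodes the oxysterol receptor LXRα, and Rara (8.09) came next. Of 25 lineage factors of other cell types, 0 were bright, 16 were low middling and 9 near background. They ran from the erythroid factor Tal1 (6.48 ± 0.25) to the intestinal factor Cdx2 (3.46 ± 0.05). None of 33 homeobox cluster genes and none of 19 Sox factors was bright, where 10% of all genes were. Near background were 51.5% of the homeobox cluster genes and 31.6% of the Sox factors, against 34.1% of all genes. Zinc finger genes named Zfp were bright in 12 of 358 cases and near background in 52.

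Most receptor genes of the colony-stimulating factors were bright. Csf1r, the M-CSF receptor, read 12.10, 12.12 and 12.02. Both chains of the GM-CSF receptor, Csf2ra (11.18 ± 0.28) and Csf2rb (10.30), were bright, while Csf3r, the G-CSF receptor, was middling (8.99 ± 0.23). Of the ligands, Csf1 was middling (8.39, 7.20 and 7.70), Il34 (5.36 ± 0.04) and Csf3 (5.15 ± 0.01) were low middling, and Csf2 was near background (4.24 ± 0.28). No ligand gene was bright in this list of 14 measured genes (7 bright, 6 middling, 1 near background).

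Of 29 measured surface markers of macrophages, 23 were bright and 6 middling, with a median of 11.31, and the bright count was the same without vehicle 1. Lgals3, the lectin galectin-3, read 12.66, 12.55 and 12.49. Cd14, a co-receptor for lipopolysaccharide, was middling and high on vehicle 1 (8.93, against 7.69 and 7.78). Cd86, a costimulator, lay at the lower border (4.59 ± 0.35) and was near background without vehicle 1. Markers and factors of tissue-resident macrophages differed from these surface markers, with 2 of 25 bright (8%), 15 middling (12 low middling) and 8 near background (32%). Those shares lay close to the 10% bright and 34.1% near background of all genes. The folate receptor Folr2 (11.50 ± 0.06) and the Fc receptor-like gene Fcrls (11.31 ± 0.03) were bright, and Cd5l, a secreted inhibitor of apoptosis, was middling with a low value on vehicle 1 (8.48, 9.51 and 9.62). Timd4 (3.98 ± 0.03), Vsig4 (3.99 ± 0.17), Adgre4 (4.09) and Fcna (4.09), which mark macrophages of the peritoneum, liver or spleen, were near background.

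Genes of antibody receptors and of complement ranged from bright to near background. Fcer1g, the shared signalling chain of Fc receptors, read 12.52, 12.61 and 12.45, and Fcgr3, a low-affinity IgG receptor, read 12.42, 12.20 and 12.24. Of 15 genes of the Fc receptor list, 7 were bright and 7 middling (2 low middling), and the IgE receptor chain Fcer1a was near background (4.35 ± 0.08). The receptor for the complement fragment C3a, C3ar1, had even levels of 12.51, 12.52 and 12.44. Of 18 complement genes, 8 were bright, 8 middling (7 low middling) and 2 near background. C1qb (12.08 ± 0.23), C1qc (11.45 ± 0.14), C1qa (10.68 ± 0.13) and properdin (Cfp, 11.83 ± 0.14) were bright. In contrast, C2 (3.68 ± 0.16) and Cr2 (3.84), a complement receptor of B cells, were near background. Cd36, a receptor for oxidised lipids, was bright at 12.40 ± 0.11, as were Msr1 (10.84 ± 0.06) and Lrp1 (10.70), while Stab2 was near background (3.56). In all, 4 of 16 scavenger receptors were bright and 8 were low middling.

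Toll-like receptors fell into separate classes. Tlr7, an endosomal sensor of single-stranded RNA, read 11.06, 11.35 and 11.46. Tlr8 (10.62 ± 0.17) and Tlr13 (10.49 ± 0.12), endosomal RNA sensors as well, and Tlr4 (10.01 ± 0.38), the lipopolysaccharide receptor, were bright, together with its partner Ly96 (11.22). Tlr9, the DNA sensor, was low middling (5.29 ± 0.06). Tlr5 (3.39 ± 0.37), the flagellin receptor, Tlr11 (3.73 ± 0.17) and Tlr12 (4.48 ± 0.10) were near background. Cytosolic sensors were mostly middling (17 of 19, 7 of them low middling), where 55.9% of all genes were middling. Casp1 (10.05) and the adaptor Mavs (9.75) were bright.

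Chemokine and chemoattractant receptors were bright in 6.90% of cases, against 10% of all genes. Of the 29, C3ar1 and C5ar1 (9.89 ± 0.07) were bright, 16 were middling (10 low middling) and 11 near background (37.9%, against 34.1% of all genes). Ccr3 (9.28 ± 0.45) and Ccr1 (8.96) were the highest of the chemokine receptors proper. Xcr1 (3.20 ± 0.17), Ccr9 (3.35 ± 0.15) and Ccr4 (3.10 ± 0.18) were near background. Of 44 cytokine receptors, 6 were bright (13.6%). These were Il10rb (11.13 ± 0.02), the signalling chain Il6st (10.93 ± 0.11), Il7r (10.88 ± 0.28), both TNF receptors (Tnfrsf1a at 10.44 and Tnfrsf1b at 10.37) and Il10ra (9.46, middling without vehicle 1). Il2ra (3.08 ± 0.13) and Il20ra (2.91 ± 0.08) were among the 8 near background. The nucleotide receptors P2ry6 (11.32 ± 0.22) and P2rx4 (10.38 ± 0.44) and the proton-sensing receptor Gpr65 (11.08 ± 0.34) were the 3 bright genes of 27 purinergic and lipid receptors (11.1%). Of 68 orphan receptors named Gpr, 2 were bright and 32 near background.

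C-type lectins and inhibitory receptors had members at both ends. Of 25 lectins, 6 were bright (24%, against 10% of all genes), led by Mrc1, Clec10a, Clec4d (10.58) and Clec4a3 (10.58). Near background were 8 (32%, against 34.1% of all genes), among them Clec9a (3.29 ± 0.17), a marker of dendritic cells. Of 29 inhibitory and paired receptors, 13 were bright, led by Sirpa, Cd300ld (12.47), Lilrb4a (12.25) and Lilr4b (11.82). Siglecg (3.98), Pdcd1 (4.15), the receptor PD-1, and Siglech (4.40) were near background. Trem1 (4.79), an activating receptor, was low middling. Of 29 integrins and adhesion genes, 10 were bright, with the β2 integrin Itgb2 at 11.74 and Selplg, the ligand of selectins, at 11.52.

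Secreted products were uneven in level, with members from bright to near background in most lists. Of 37 chemokine ligands, 7 were bright (5 without vehicle 1), 20 middling (14 low middling) and 10 near background. Ccl9 read 12.79, 12.45 and 12.53, and the monocyte attractants Ccl2 (11.51, 11.96 and 11.91) and Ccl7 (10.91, 11.53 and 11.59) were bright too. Ccl3 (10.42 ± 0.40) completed the first 4. Cxcl13 (3.45 ± 0.14), Ccl19 (3.41 ± 0.40), Ccl26 (3.65 ± 0.11) and Ccl8 (3.95) were the lowest. Ccl22, the partner of Ccl17 at the receptor CCR4, was middling (8.27 ± 0.20) while Ccl17 was low middling. Ccl24, an attractant of eosinophils, read 9.32 on vehicle 1 and 6.10 and 6.56 on the others, so it was above 6.92 in the mean over 3 arrays but low middling on vehicle 2 and 3.

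Inflammatory cytokines and enzymes had shares of bright and near-background genes (12.1% and 27.3%) close to those of all genes (10% and 34.1%), with a median of 5.33 against 5.79. Of 33, 4 were bright (3 without vehicle 1), 20 middling (16 low middling) and 9 near background, a count that rose to 12 without vehicle 1. Tgfb1, the anti-inflammatory TGF-β1, led at 11.16 ± 0.26, and Il1rn, which encodes the IL-1 receptor antagonist, read 10.50, 9.18 and 9.43. Tnf was middling (9.58, 8.58 and 8.46). Il6 read 3.40, 2.87 and 3.19, and Il12a (3.42 ± 0.22), Tslp (3.46 ± 0.06) and Nos2 (3.97 ± 0.20), which encodes the inducible nitric oxide synthase, were likewise near background. Of 38 interleukin genes 1 was bright, Il1rn, and 22 were near background, and without vehicle 1 none was bright.

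Among growth factors 4 of 31 were bright (12.9%, against 10% of all genes). These were Igf1, progranulin (Grn, 12.60, 12.51 and 12.52), Tgfb1 and Pdgfa (9.50 ± 0.13), which reads near the border of bright and was middling without vehicle 1. Tgfb2 (3.77 ± 0.08), Fgf7 (3.90) and Bmp2 (3.90) were near background. None of 19 Wnt, 21 fibroblast growth factor and 18 bone morphogenetic genes was bright. With 10% of all genes bright, families of this size would hold few bright genes in any case. Of cytokines of the TNF family and others, Mif (9.26, 10.03 and 10.11) was bright. Near background were 9 of 26 (34.6%, against 34.1% of all genes), among them Il3 (3.41 ± 0.07). Proteases and their inhibitors had 13 of 28 bright. Mmp12, Adam8 (12.55 ± 0.03), the inhibitor cystatin C (Cst3, 12.18 ± 0.22) and urokinase (Plau, 10.77, 11.61 and 11.73) were the highest, and Mmp7 (3.55 ± 0.08) and Serpinb2 (3.72) the lowest. Of 21 matrix metalloproteinases, 3 were bright (14.3%, against 10% of all genes) and 9 near background (42.9%, against 34.1%).

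Matrix genes ranged from bright to near background. None of 42 collagen genes was bright and 15 were near background (35.7%, against 34.1% of all genes). Lgals3, Lgals1 (12.21), the hyaluronan receptor Cd44 (12.20) and Tgfbi (11.84) were bright, and the proteoglycan Lum was near background (3.52 ± 0.25). Fn1, fibronectin, was 9.86 on vehicle 1 against 7.17 and 7.10 on the others.

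**Figure D4:**
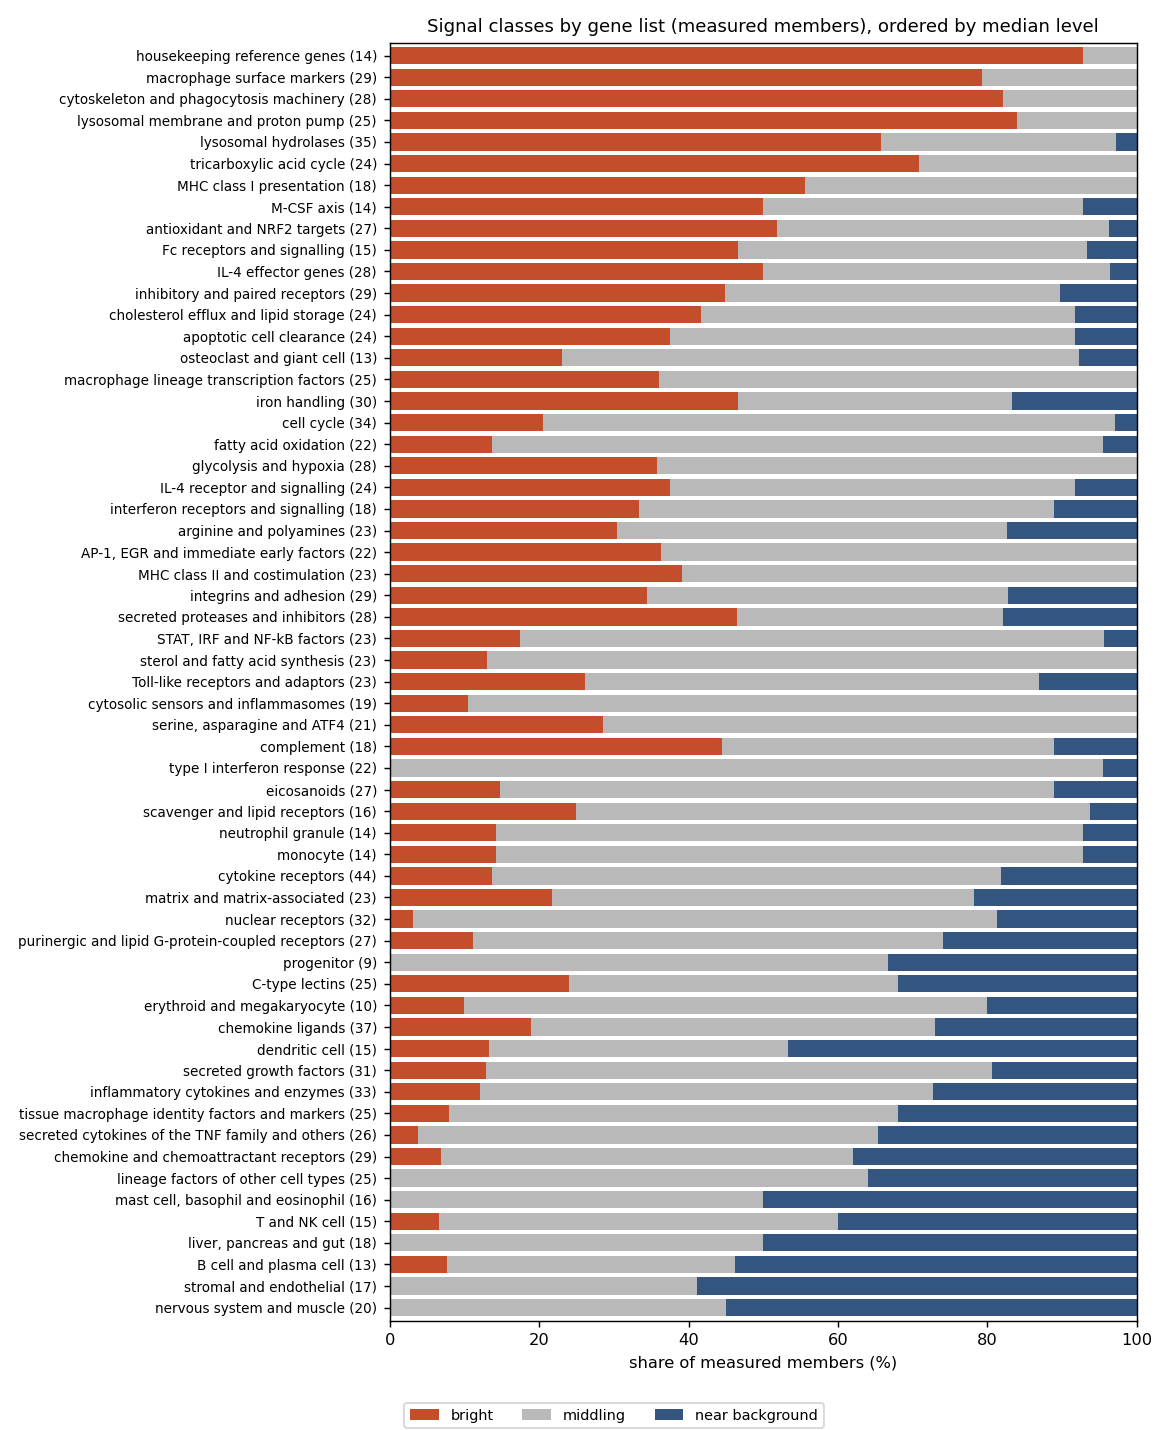
Share of the measured members of each of 59 gene lists that were bright (red), middling (grey) or near background (blue), in percent, with the number of measured members in brackets and lists ordered by median level. Lists of housekeeping genes, macrophage surface markers, phagocytosis machinery and lysosomes stand at the top, and lists of other tissues and lymphocytes, with 0 or 1 bright members, at the bottom.

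Lysosomes were among the brightest gene groups. Of 35 measured hydrolases, 23 were bright, 11 middling and 1 near background, with a median of 10.15. Cathepsins S (Ctss, 12.51 ± 0.12) and B, prosaposin (Psap, 13.10, 12.79 and 12.89) and progranulin led, and Ctsg, a cathepsin of neutrophil granules, was near background (4.38 ± 0.25). In the list of membrane proteins and the proton pump 21 of 25 were bright and 0 near background, and the pump subunit Atp6v0d2 read 12.82, 12.41 and 12.49. The median hydrolase level was 10.96 on vehicle 1 and 9.93 on each of the others, and 29 of 35 were higher on vehicle 1, with a median difference per gene of 0.31. Proteins that handle cholesterol and lipid droplets had 10 of 24 bright. Besides Lpl these included the lipase Lipa (12.36), Nceh1 (11.95) and apolipoprotein E (Apoe, 11.47, 12.13 and 12.11). Abca1, which exports cholesterol, read 10.47 on vehicle 1 and 7.48 and 7.77 on the others.

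Iron handling had 14 of 30 genes bright and 5 near background. After the ferritins came Hmox1, which opens the haem ring (12.35, 12.60 and 12.48), and the haem transporter Slc48a1 (12.21 ± 0.07). Ftmt (3.59), Heph (3.61) and Cp (3.91), a mitochondrial ferritin and a pair of ferroxidases, were near background. Of 27 antioxidant genes 14 were bright, among them catalase (Cat, 12.35) and Gpx1 (12.15).

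Genes of the tricarboxylic acid cycle and glycolysis were bright or middling, and some other metabolic lists also had members near background. In the tricarboxylic acid cycle 17 of 24 were bright and 0 near background (median 9.76), from Got2 (10.83) and Mdh2 (10.73) down to Sucla2 (6.03, low middling). In glycolysis 10 of 28 were bright, with Gapdh (12.64 ± 0.07), Pkm (12.36), Aldoa (12.21) and Ldha (12.02) highest. Fatty acid oxidation was mostly middling (18 of 22, 2 of them low middling), with Hadha bright (10.40 ± 0.07) and the coactivator Ppargc1a near background (3.59 ± 0.12). Sterol and fatty acid synthesis was mostly middling as well (20 of 23, 5 of them low middling), led by Srebf2 (10.09). Of 23 genes of arginine and polyamine metabolism 7 were bright, including Eif5a (12.63 ± 0.12), the protein that carries the polyamine-derived hypusine, Arg1, Azin1 (11.05) and the arginine transporter Slc7a2 (10.76 ± 0.12). In the list of serine and asparagine synthesis and ATF4 targets 6 of 21 were bright. Asns, asparagine synthetase, read 9.66 on vehicle 1 and 11.50 and 11.73 on the others, and 16 of the 21 were lower on vehicle 1. For eicosanoids, 4 of 27 were bright (14.8%, against 10% of all genes), 20 middling (12 low middling) and 3 near background. Among the bright ones were thromboxane synthase (Tbxas1, 11.66 ± 0.08), the 5-lipoxygenase-activating protein gene Alox5ap (11.36 ± 0.25) and Hpgds (9.92 ± 0.42). Ptgds was near background (3.43 ± 0.12).

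Subunits of large complexes gave a scale for these counts. Cytosolic ribosomal proteins were bright in 53 of 62 cases (median 11.04) and mitochondrial ribosomal proteins in 4 of 76 (median 8.35). Proteasome subunits were bright in 24 of 44 cases and complex I subunits in 14 of 36. Potassium channels were near background in 48 of 87 cases and cytochrome P450 genes in 71 of 96, against 34.1% of all genes, while solute carriers were close to that share with 132 of 369 (35.8%). Of 243 long non-coding RNA genes 3 were bright, one of them Tug1 (9.51 ± 0.06).

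Genes of antigen presentation were bright or middling for the most part. For MHC class I, 10 of 18 were bright and 0 near background, and the heavy chain H2-K1 had a mean of 11.83. For class II and costimulation, 9 of 23 were bright and 14 middling (7 low middling). The class II chain H2-Aa was highest on vehicle 1 (11.03, 10.33 and 10.36). Type I interferon response genes were nearly all middling (21 of 22, 10 of them low middling), with 0 bright (2 without vehicle 1). Bst2 (9.36 ± 0.28) and Oasl2 (9.30 ± 0.38) lay closest to bright and Ifit2 (3.59, 4.83 and 5.13) was near background, but low middling without vehicle 1. The interferon genes Ifnb1 (4.71), Ifng (3.60) and Ifna4 (3.24) were low middling or near background.

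Cell cycle genes were mostly middling. Of 34 cell cycle genes, 7 were bright (11 without vehicle 1), 26 middling (2 low middling) and 1 near background. Pcna, the sliding clamp of replication, read 12.35, 12.32 and 12.34, and the inhibitor Cdkn1a, p21, read 12.14, 12.30 and 12.13. Mki67, the marker Ki-67, read 9.65 on vehicle 1 and 10.69 and 10.90 on the others, and 32 of the 34 genes were lower on vehicle 1. The median of the list was 8.06 on vehicle 1, 8.75 on vehicle 2 and 8.97 on vehicle 3. Cdkn2a, a marker of senescence, was near background (3.48 ± 0.33).

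Marker lists of other cell types ranged in median from 4.29 for nervous system and muscle to 6.63 for neutrophil granules, apart from osteoclast genes, against 5.79 for all genes. Of 14 neutrophil granule genes, 2 were bright (14.3%, against 10% of all genes), 11 middling (8 low middling) and 1 near background (7.14%, against 34.1%). Ngp read 8.19 on vehicle 1 and 10.55 and 10.44 on the others, Lcn2 read 8.24, 10.56 and 10.29, and S100a9 read 6.13, 8.35 and 8.29. The median of these 14 genes was 5.78, 6.88 and 7.13 on vehicle 1, 2 and 3, and 11 of them were lower on vehicle 1. The progenitor marker Cd34 (6.47, 8.58 and 8.44) and the monocyte markers Ccr2 (6.30, 8.80 and 8.81) and Ly6c2 (5.83, 7.82 and 7.69) had the same order. On vehicle 1, 8 of 9 progenitor genes and 11 of 14 monocyte genes were lower. The other 3 monocyte genes were higher there, among them Chil3, the highest of that list (mean 11.47 over the arrays). Most cell cycle, neutrophil, progenitor and monocyte genes were thus lower on vehicle 1, with median differences per gene of -0.87, -1.05, -0.42 and -0.38. Other kinds of genes were lower there too, among them 13 of 14 housekeeping genes (-0.13) and 37 of 44 proteasome subunits (-0.26). Over all genes not near background the median difference was -0.036. Of 31 growth factors, 30 were higher (0.40). What part other cells had in any level given above was not tested.

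Most lymphoid markers were near background or low middling. Of 15 T and NK cell genes, 1 was bright (6.67%, against 10% of all genes), Il7r, and Cd28 was middling (8.62 ± 0.23). The other members lay between Klrb1c (3.44) and Cd4 (5.66), and the T-cell receptor chains Cd3g (3.89) and Cd3d (3.79) were near background. Of 13 B and plasma cell genes, Xbp1, a factor of the unfolded protein response, was bright (10.46 ± 0.07) and Sdc1, syndecan-1, was middling (9.12, 6.63 and 6.80), while Cd79a (3.97 ± 0.12) and Ms4a1 (3.74 ± 0.15) were near background. Of 16 mast cell, basophil and eosinophil genes 0 were bright (1 without vehicle 1, Ccr3) and 8 near background (50%, against 34.1% of all genes). Ccr3 and Siglecf (7.69 ± 0.12) were highest, and the eosinophil peroxidase Epx was near background (4.35 ± 0.29). Of 15 dendritic cell genes 2 were bright (13.3%, against 10% of all genes), the integrin Itgax and H2-Aa. Near background were 7 of them (46.7%, against 34.1% of all genes). Pf4, platelet factor 4, was the bright one of 10 erythroid and megakaryocyte genes (10.35 ± 0.37), the same 10% as over all genes. None of 17 stromal and endothelial, 20 nervous system and muscle, and 18 liver, pancreas and gut genes was bright, where 10% of all genes were. Near background were 10, 11 and 9 of them (58.8%, 55% and 50%, against 34.1% of all genes).

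The list of osteoclast and giant cell genes had a median of 8.79, with 3 of 13 bright (2 without vehicle 1) and 9 middling, while the medians of the lists of marker genes of other, non-macrophage cells and tissues were at most 6.63. Atp6v0d2 and Ocstamp (9.03, 9.88 and 9.79), both needed for cell fusion, were bright, and Dcstamp was middling (8.79 ± 0.39). Acp5, the tartrate-resistant phosphatase, read 11.05 on vehicle 1 and 8.75 and 8.89 on the others, and was bright only with vehicle 1 counted. The calcitonin receptor Calcr was near background (4.09 ± 0.08).

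The widest spans over the arrays were set by vehicle 1. Ctnnd2, which encodes a catenin, read 4.33 on vehicle 1 and 8.42 and 8.64 on the others. Cd55, a complement inhibitor, went the other way with 7.76, 3.53 and 4.27, and its close copy Cd55b, whose probes could share signal with it, read 9.80, 5.93 and 5.95. Olr1, a receptor for oxidised lipoprotein (9.04, 5.51 and 5.19), Acod1, which makes itaconate (7.74, 4.22 and 4.71), Mmp9 (9.06, 6.29 and 5.70) and Mfge8, a bridge to apoptotic cells (10.74, 7.62 and 7.65), were high on vehicle 1. Of the 15 widest spans, 12 were high and 3 low on that array. Without vehicle 1, Cd55, Acod1 and Awat1 were near background in the mean of the other arrays, and the other 12 of these genes stayed middling.

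**Figure D5:**
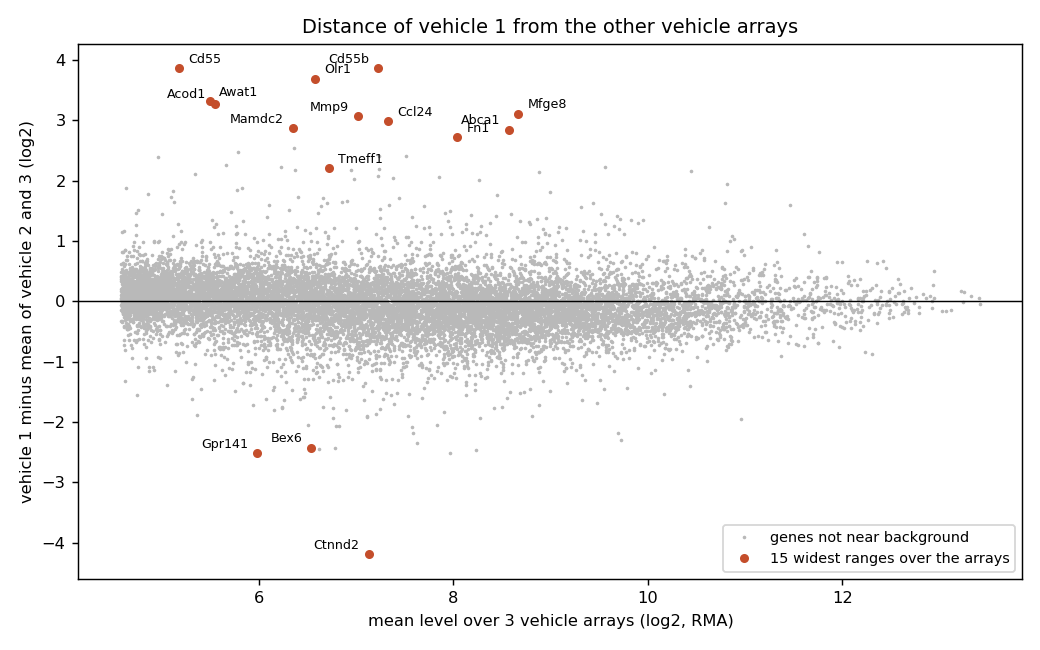
Level on vehicle 1 minus the mean of vehicle 2 and 3 (log2) against the mean level over the 3 arrays (log2, RMA), 1 point per gene not near background. Red points are the 15 genes with the widest range over the arrays, from Ctnnd2 at -4.20 to Cd55b at 3.87, and the spread narrows toward the brightest genes.

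Genes at the class borders show how little separates neighbours there. Ecd (9.40 ± 0.06) was the last bright gene and Gfm1 (9.40 ± 0.29) the first middling one, and Rnf149, also just bright, read 9.91, 9.33 and 8.97. At the lower border Cndp1 (4.59 ± 0.22) was just middling and Pitx1 (4.59 ± 0.22) just near background. The median SD over the arrays was 0.15 for bright, 0.18 for middling and 0.14 for near-background genes, so genes within about this distance of a border are not assigned firmly.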

How the data were processed

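RNA of IL-4 treated bone marrow macrophages with vehicle was measured on 3 arrays. The authors' deposited table gives log2 levels for 22203 probe sets on the study's 9 arrays and lacks 0 values. Per the submitters' processing notes, oligo and RMA were used, and versions are not given in the sources used here. RMA subtracts background, equalises the distribution of probe signals between arrays and condenses each probe set to 1 value, so a general difference in RNA amount between arrays is removed.

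A single gene symbol belonged to 19572 probe sets, several to 0 and none to 2631. The values were not transformed further. Symbols were checked by Entrez identifier against RefSeq (GRCm38.p6), where 19572 matched and 0 changed. For 55 genes with several probe sets the one with the highest mean was kept, and the probe sets of 38 of them fell in the same class. Classes, medians, SDs and ranges were computed in Python 3.11.15 with pandas 2.3.3 and numpy 2.4.6. With 1 group there is no comparison between groups and no test. The number of arrays limits the precision. The class rule was also run on simulated levels, made from the observed means plus noise with each gene's own SD. Such a run cannot show whether the borders separate expressed from unexpressed genes, because the observed means were taken as true.

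The 59 gene lists and 35 families, the borders and the motifs were chosen with earlier results of these data known. Of 1285 listed genes 1162 were measured, and the other 123 were not analysed here. Genes named were the 30 brightest, up to 4 highest and 4 lowest members of each list or family, the cell type markers, listed paralogs, the 15 widest ranges and the 5 nearest genes on each side of a border. Csf3r, Tgm2, Flt1, Cdh1, Tfec, Pdcd1lg2, Il4ra, Irf4, Tlr4, Tlr9 and Tug1 were named after their values were seen. Promoter windows are those of RefSeq (GRCm38.p6).

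Alternatives were other borders, another dark reference, the lowest probe set per gene and each array left out. The other reference for list counts and both promoter subsets were added after seeing the data.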

Additional observations from a re-analysis of the deposited data

How the results depend on the processing

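The count of genes near background was 6645. It became 12207, and that of bright or middling genes 7298 in place of 12860, with the epithelial, defensin and prolactin families as dark reference, which was the only planned border to move these counts by more than 1.5 times. With the 99th percentile the count near background was 8567, with the median of all probe sets 9456, with the lowest probe set per gene 6661 and with every array required 6147. The bright class held 975 genes as the top 5%, 2638 at 9 or above and 1681 when every array was required. Leaving out each array in turn gave 6639 to 6710 genes near background, 1950 bright (fixed by the definition) and 12795 to 12866 bright or middling. The median promoter CpG ratio was 0.797 for bright and 0.226 for near-background genes with a single promoter, and 0.319 for the latter without chemosensory genes, with the order of the classes the same. Of the 59 lists, 56 changed their near-background count by more than 1.5 times with the other dark reference, 32 with the 99th percentile and 8 without vehicle 1. Bright counts changed that much in 7 lists with the border at 9 and in 3 without vehicle 1.

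No paired analysis was possible because a single group is described and no result comes from a test. Signal over background limits what can be said of low middling genes, and 3 arrays of unknown origin limit the SDs.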

Other observations

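The 2631 probe sets without a gene symbol were placed in the same classes. They held 239 bright members (9.08%, against 10% of named genes), 1172 middling and 1220 near background (46.4%, against 34.1%), with a highest mean of 13.18 and a median of 4.83.

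A pair of members of the chemosensory reference had levels well above the rest of it. Olfr111 read 7.91, 8.65 and 8.49 on vehicle 1, 2 and 3, and Olfr110 read 6.73, 7.70 and 7.52. The next in order was Vmn2r29 at 6.31 ± 0.16, and 73 of the 1447 genes lay above the border that the family itself sets.

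Chromosomes differed in the share of their genes near background. It was 50.6% of 798 genes on chromosome X and 43.6% of 1822 genes on chromosome 7, against 24.9% of 930 genes on chromosome 8. On chromosome Y, with only 32 genes, it was 84.4%, and 0 genes were bright. Bright genes made up 12.6% of 645 genes on chromosome 19 and 6.37% on chromosome 7. Members of gene families lie side by side on some chromosomes, and their part in these shares was not tested.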
